A study of Mus musculus with 12 samples.

Results

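This account follows 51 mouse genes of the mitotic machinery through the differentiation of C2C12 cells, a permanent line of mouse myoblasts that stop dividing and fuse into myotubes in low serum. The genes were chosen by name, with earlier results of these data known. The set covers kinases and phosphatases of mitotic entry, spindle checkpoint, kinetochore, kinesin and cytokinesis genes. Through RefSeq accessions, 62 array probes reached these genes. They are 51 of the 19259 gene symbols that could be assigned to probes. The study recorded 4 stages with 3 single-colour Agilent arrays each. Proliferating cells grew in 10% fetal bovine serum to between 80 and 90% confluence, and the other stages were cultures kept in 2% horse serum for 2, 5 or 8 days. All 4 groups are the same line, with no genotype or drug treatment named. The labels name 3 experiments per stage without saying how far their cultures were separate, so p-values speak only of the spread between these arrays.

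A dividing cell builds its spindle and kinetochores anew at each mitosis. The kinases Cdk1, Plk1 and Aurora A drive entry, the spindle checkpoint holds back the anaphase-promoting complex until every kinetochore is attached to microtubules, and separase then cuts cohesin so that the chromatids part. Transcripts of these proteins are made late in the cell cycle, and in resting cells many of their promoters are repressed by the DREAM complex, which reaches them through a short element called the cell cycle genes homology region (CHR). Myoblasts leave the cell cycle for good when they form myotubes, and a minor part of a C2C12 culture stays mononucleated.

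Signals are given after each array was scaled so that its 75th percentile was 1000. Probes differ in brightness for technical reasons, so a level is compared between stages and never between genes. The scanner's flag put between 56.9% and 69.5% of an array's spots well above background, and 0 spots were saturated. Of 8 skeletal muscle markers, 7 were above background on all proliferation arrays and 8 on all later arrays. Their summed signal went from between 92300 and 117000 in proliferation to between 526000 and 592000 at day 5. It lay between 96700 and 120000 at day 2 and between 335000 and 444000 at day 8. At day 5, 7 of the 8 were called higher than in proliferation and Myf5 lower (-0.39). Myod1 was lower at day 2 (-0.52). Of 4 adipocyte markers, 0 were above background on any array. Some arrays of each stage were above background for 3 or 4 of 4 endothelial markers (summed 213 to 294 in proliferation and 678 to 874 at day 5), for 2 to 4 of 5 macrophage markers (88.6 to 178 and 132 to 150; Adgre1 on no array) and for 3 to 6 of 6 neural markers (4120 to 4390 and 7910 to 8930). A sum follows its brightest probe. At day 5 Tek was higher (2.38) while Cdh5 and Kdr were lower (-1.80 and -2.91) and Pecam1 was not called. Of the macrophage markers Csf1r (0.68) and Aif1 (1.29) were higher and Tyrobp (-2.49) lower, and the neural sum is mostly Map2 (1.03). The part of such cells in the results was not tested. The arrays lay on 3 slides of 4: slide 1 held the 3 proliferation arrays and day 2 array 1, slide 2 held day 2 arrays 2 and 3 and day 5 arrays 1 and 2, and slide 3 held day 5 array 3 and the 3 day 8 arrays. Proliferation and day 5 or day 8 therefore never shared a slide, and those contrasts can be set within slides only through day 2.

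A gene was tested if, at some stage, its probe was above background on each of the 3 arrays. 50 of the 51 genes met this, and 47 were above background on all 12 arrays. Almost the whole set moved together: by an F test in limma over the 4 stages, 49 of 50 changed (Benjamini-Hochberg adjusted p under 0.05), against 65.8% of all 22960 probes tested. Most of the change fell between day 2 and day 5. At day 2, 11 genes were lower than in proliferation and 3 higher, where 12.2% and 18.3% of all tested probes were called lower and higher. At day 5, 47 of 50 were lower than in proliferation against 23.8% of all probes. At day 8 all 50 were lower against 29.4%, and 45 of these calls held under every alternative run that gave the gene a value. A fit with a term for the slide lost Bub1, Bub3, Cenpf and Kif20a. Another background correction (normexp) lost Cdk1 (-0.11) and Kif20a (0.21). limma called 0 members higher at day 5 or day 8 (0 also at an unadjusted p under 0.05), where 23.7% and 25.4% of all probes were called higher. The median log2 fold change against proliferation went from -0.25 at day 2 to -2.58 at day 5 and -3.16 at day 8, while the median over all tested probes was 0.07, -0.02 and -0.11. A day 5 value at or below the members' median was found for 2.01% of all tested probes. In these bulk samples, fewer dividing cells and less mitotic RNA per cell cannot be told apart.

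**Figure D1:**
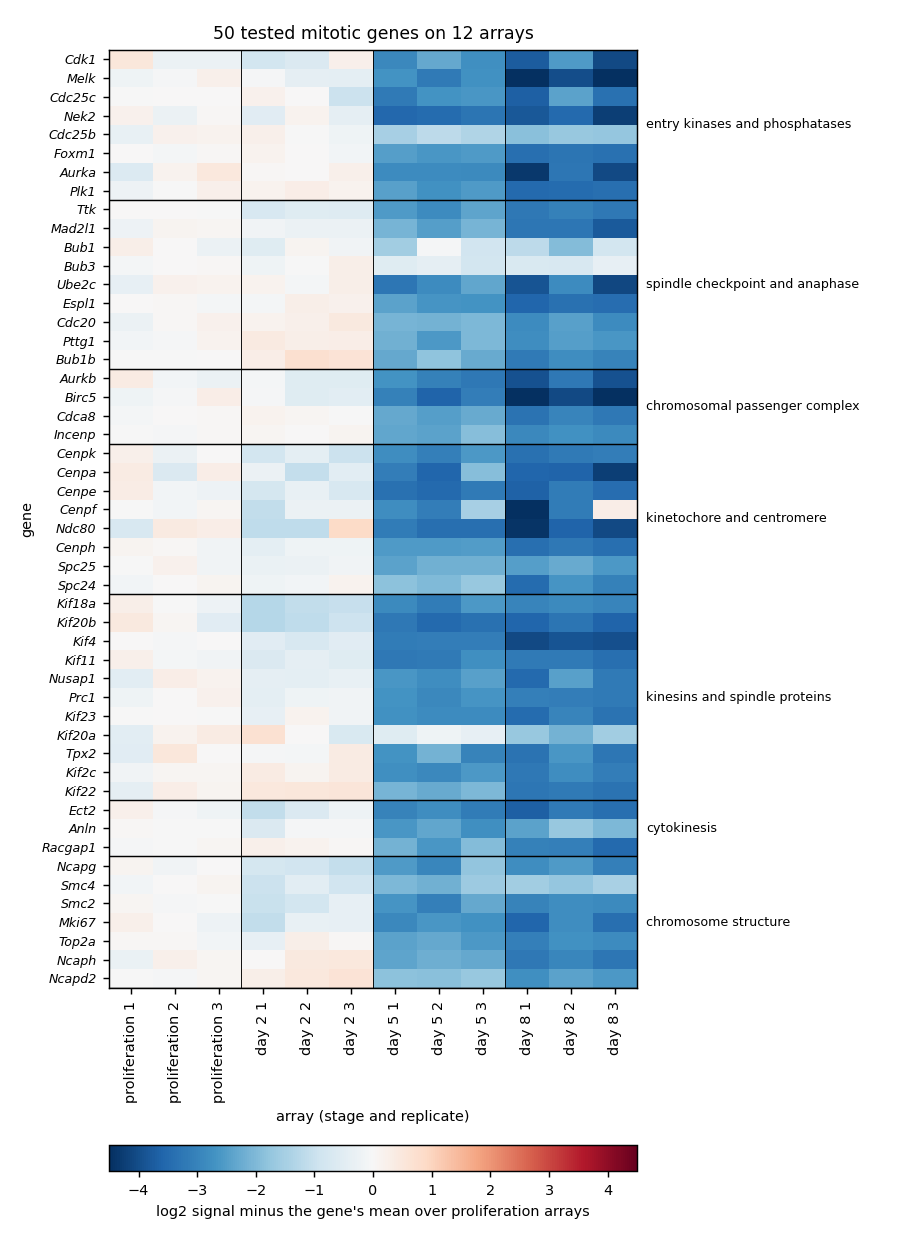
Heat map of the 50 tested genes (rows, grouped by role) on the 12 arrays (columns), coloured by log2 signal minus the gene's mean over the 3 proliferation arrays. The proliferation and day 2 columns stay pale, and the day 5 and day 8 columns turn blue in every role group, with Bub3, Bub1 and Kif20a as the palest rows.

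The step from day 2 to day 5 took 47 of 50 genes lower (15.7% of all probes were called lower) with a median of -2.36. Day 2 arrays 2 and 3 and day 5 arrays 1 and 2 share a slide, and within it all 50 genes were lower at day 5, with a median of -2.45 against -0.02 for all tested probes. Of all tested probes 51.5% were lower at day 5 within that slide. A limma contrast of the second step (day 2 to day 5) minus the first (proliferation to day 2) was below 0 for all 50 genes and called for 39, against 11.8% of probes (8.61% were called above 0). The second step lasted a day longer than the first. Among the 46 genes that fell at least 2-fold by day 5 and were called there, a median of 9.92% of that log2 fall was already present at day 2, with a range from -25.5% for Bub1b, which had moved the other way, to 39.8% for Kif18a. The 3 arrays of day 5 lay below all 3 of proliferation for 48 genes (28% of all probes) and those of day 8 for 49 (35.2% of all probes).

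Promoter sequence was looked at because so many members moved together. RefSeq promoters of 43 of the 51 genes (assembly GRCm38.p6, 250 bases before to 50 after the annotated start, 48 promoters in all) were searched on both strands for the CHR, written TTTGAA or TTCGAA, and for the CCAAT box, CCAAT, the site of the activator NF-Y. A CHR was found in 34 of the 48 promoters (70.8%), against 19.2% of 32851 mouse promoters of the same length, and a CCAAT box in 75% against 37.4%. Both occurred in 62.5% of the members' promoters and in 7.52% of all promoters. Their median GC content was 59% against 52.7%. In the other mitotic gene lists described below, 47.8% of 90 promoters held a CHR. The E2F site, searched as TTTCGCGC or TTTGGCGC, was in 6.25% of the members' promoters and in 0.813% of all. These are matches of letters in a fixed window, which describe the sequence only.

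The 80 bases before the annotated start are printed for 9 genes to show how the pair of elements is laid out; capitals mark the CHR, the CCAAT box or the E2F site on either strand, where a reversed CHR reads TTCAAA and a reversed CCAAT box ATTGG. The first 7 genes were called lower at day 5, though Cdk1, with a dim probe, lost that call with normexp (-0.27). Bub3 (the upstream one of its 2 annotated starts is used) carries the same elements and had the smallest fall of the genes called. Kif18a fell early with none of the pair. The 9 genes were picked by hand and do not stand for all members.
Cdk1, chr10:69352913-69352992, minus strand: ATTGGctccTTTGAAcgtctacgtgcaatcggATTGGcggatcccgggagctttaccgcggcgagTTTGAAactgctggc
Cdc20, chr4:118437344-118437423, minus strand: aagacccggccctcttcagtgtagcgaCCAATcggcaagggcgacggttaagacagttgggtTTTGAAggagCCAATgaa
Ube2c, chr2:164769849-164769928, plus strand: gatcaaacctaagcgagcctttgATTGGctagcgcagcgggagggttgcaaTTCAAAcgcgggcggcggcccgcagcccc
Espl1, chr15:102296213-102296292, plus strand: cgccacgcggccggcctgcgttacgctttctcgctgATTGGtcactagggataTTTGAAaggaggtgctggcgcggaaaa
Kif11, chr19:37376302-37376381, plus strand: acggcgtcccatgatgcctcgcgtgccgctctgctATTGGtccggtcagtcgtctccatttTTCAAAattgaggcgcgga
Kif22, chr7:127042421-127042500, minus strand: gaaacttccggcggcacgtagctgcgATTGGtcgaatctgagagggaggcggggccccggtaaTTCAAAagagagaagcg
Top2a, chr11:99024190-99024269, minus strand: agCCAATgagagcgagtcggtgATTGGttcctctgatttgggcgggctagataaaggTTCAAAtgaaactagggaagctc
Bub3, chr7:131560290-131560369, plus strand: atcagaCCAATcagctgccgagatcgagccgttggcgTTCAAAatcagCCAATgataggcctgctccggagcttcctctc
Kif18a, chr2:109280658-109280737, plus strand: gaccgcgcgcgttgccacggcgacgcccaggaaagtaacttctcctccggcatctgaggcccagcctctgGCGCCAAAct
Within the 80 bases printed, a single CCAAT box stands a short way before a single CHR in Ube2c, Espl1, Kif11 and Kif22: at -57 and -29 in Ube2c, -44 and -27 in Espl1, -45 and -19 in Kif11, and -54 and -17 in Kif22, counted to the first base of each match. Cdk1 repeats the arrangement, with CCAAT boxes at -80 and -48 and CHR matches at -71 and -15. Cdc20 and Bub3 have a CCAAT box on each side of the CHR (-53, -8 and a CHR at -18 in Cdc20; -74, -32 and a CHR at -43 in Bub3), and Top2a has 2 boxes, at -78 and -58, before a CHR at -23. Further out in the 300-base window, Ube2c has 5 more CCAAT boxes, Kif22 has 1 more of each element, Cdk1 has 1 more CCAAT box and an E2F site, and Top2a has 4 more boxes and 3 more CHR matches. The only capitals in Kif18a are the E2F site at -10. The median day 5 change was -2.58 over 31 tested genes with a CHR match (range -3.37 to -0.60). Over 11 genes without a match it was -2.81 (range -3.43 to -2.23). Melk, Mad2l1, Pttg1, Birc5, Nusap1 and Ncaph, with no match to any of the 3 motifs in this window, are among the latter. Whether the element is related to the size of the fall was not tested.

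**Figure D2:**
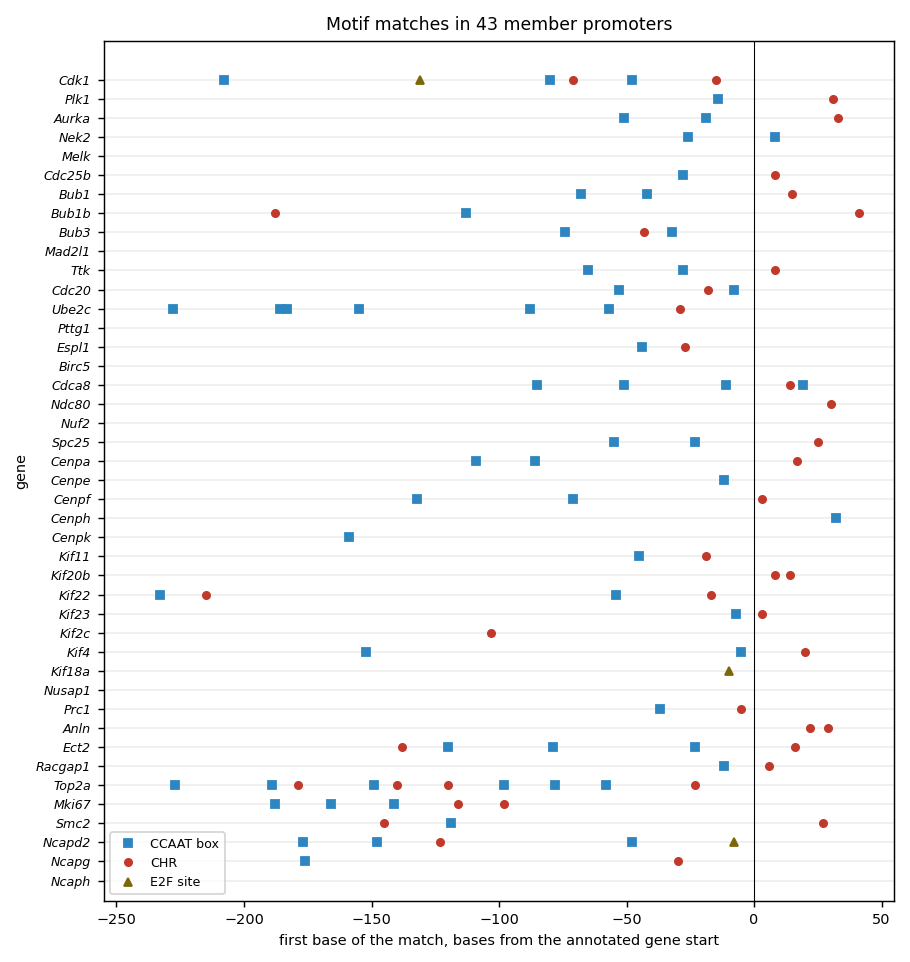
Position of motif matches in the promoters of 43 member genes (rows), in bases from the annotated start (horizontal axis; 1 promoter per gene). 28 of the 31 genes with a CHR have one within 50 bases of the start, and CCAAT boxes lie mostly before it.

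Of the kinases and phosphatases of mitotic entry, limma called 0 of 8 at day 2 (0 at an unadjusted p under 0.05), with 5 below and 3 above 0 and a median of -0.13. Of all tested probes, 12.2% were called lower and 18.3% higher at day 2. All 8 had fallen by day 5 (median -2.74), where 23.8% of all tested probes were called lower. At day 8 all 8 were below proliferation (median -3.45), where 29.4% of all tested probes were called lower. Nek2, a centrosome kinase that separates the spindle poles, had signals of 10600, 7760 and 9670 in proliferation, 6490, 10300 and 6910 at day 2, 798, 847 and 946 at day 5, and 663, 822 and 487 at day 8. The first 2 stages overlapped and every later array lay far below them. The fall by day 5 was 10.8-fold, a log2 fold change of -3.43 with a standard error of ± 0.23 (n = 3 arrays at each stage, limma adjusted p = 6.46e-07). Melk, a kinase expressed in dividing cells, read 899, 992 and 1210, then 992, 786 and 763, then 160, 112 and 154, and at day 8 only 42.3, 64.8 and 40.9. It kept falling after day 5, with no overlap between day 5 and day 8, and ended 21.3-fold below proliferation (-4.41 ± 0.22, limma adjusted p = 5.57e-08).

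Plk1, the Polo-like kinase that acts from entry to cytokinesis, gave 34600, 39900 and 47400 in proliferation, 44900, 49300 and 45000 at day 2, 7460, 6130 and 6930 at day 5 and 3570, 3670 and 3790 at day 8. Its day 2 arrays overlapped those of proliferation (0.20 ± 0.14, limma adjusted p = 0.298), its day 5 change was -2.56 ± 0.14 and its day 8 arrays were the tightest of its 4 stages. Foxm1, the transcription factor of late cell cycle genes, followed the same course, at 0.02, -2.55 and -3.35. Aurka (Aurora A, the spindle pole kinase) stood at -2.84 on day 5, Cdc25c, a phosphatase that activates Cdk1, at -2.83, and Cdk1 itself at -2.65. The Cdk1 probe was dim: it read 52.2, 30.4 and 30.6 in proliferation and 4.85, 7.42 and 5.39 at day 5, was above background on 2 of 3 day 5 and 1 of 3 day 8 arrays, and lost its day 5 call with another background correction (normexp, -0.27, adjusted p = 0.156; 9.43e-05 to 0.156 across settings), as it did its day 8 call (0.571). Cdc25b, the sister phosphatase, fell least in the group, from 1630, 2320 and 2270 in proliferation and 2370, 2020 and 1770 at day 2 to 723, 912 and 806 at day 5 and 561, 626 and 604 at day 8. Its fall of 2.52-fold by day 5 (-1.34 ± 0.17, limma adjusted p = 8.4e-05) was not called when slide was a term of the fit (-1.01, adjusted p = 0.0535; 4.22e-05 to 0.0535 across settings).

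In the spindle checkpoint and anaphase group, 1 of 9 genes was called lower and 1 higher at day 2, no more than the shares of all probes (12.2% and 18.3%). At day 5, 8 of 9 were lower (median -2.23) and at day 8, 9 of 9 (median -2.99), against 23.8% and 29.4% of all tested probes. Ube2c, the ubiquitin-conjugating enzyme of the anaphase-promoting complex, fell most by day 5. It read 10500, 15400 and 15100 in proliferation, 15100, 12600 and 16100 at day 2, 1410, 1880 and 2680 at day 5 and 920, 1900 and 789 at day 8. Day 5 and day 8 overlapped each other but neither overlapped the earlier stages (7.0-fold by day 5, -2.81 ± 0.33, limma adjusted p = 4.46e-05). Ttk, the checkpoint kinase Mps1, was the one gene of the group already lower at day 2: 5210, 5270 and 5060 in proliferation became 3160, 3570 and 3500, then 887, 732 and 990 at day 5 and 556, 631 and 558 at day 8. No stage of Ttk overlapped another, and it stood at -2.59 ± 0.13 on day 5.

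The separase Espl1 was at -2.58 on day 5, its inhibitor securin (Pttg1) at -2.25, the checkpoint protein Mad2l1 at -2.23, the checkpoint kinase-like protein Bub1b (BubR1) at -2.13 and the anaphase activator Cdc20 at -2.07. Bub3, which binds Bub1 and Bub1b to kinetochores, stood apart. Its signal was 9370, 9900 and 10300 in proliferation and 8520, 9680 and 11900 at day 2. The later arrays gave 6720, 7430 and 5520 at day 5 and 6140, 5940 and 7610 at day 8. The day 5 arrays lay below those of proliferation, but by 1.51-fold only (-0.60 ± 0.17, limma adjusted p = 0.0124), and day 8 was no lower (0.00 ± 0.17 against day 5). With a slide term the day 5 call was lost (-0.81, adjusted p = 0.0668; 0.00558 to 0.0668 across settings). The fall from day 2 to day 5 (-0.61, adjusted p = 0.0177) was lost without day 2 array 3 (0.0722) or day 5 array 3 (0.0697). Bub1, the kinetochore kinase of the checkpoint, was not called at day 5 (-0.83 ± 0.38, limma adjusted p = 0.1): its 3 day 5 arrays read 375, 1090 and 615 against 1330, 1120 and 938 in proliferation, and without day 5 array 2 the change was -1.22 (adjusted p = 0.0185; 0.0185 to 0.349 across settings). At day 8 Bub1 was lower (490, 288 and 633; -1.33, adjusted p = 0.0132), a call lost without day 8 array 2 (0.0553) and with a slide term (0.237; 0.00542 to 0.237 across settings).

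All 4 genes of the chromosomal passenger complex, which corrects faulty attachments and later marks the cleavage plane, fell by day 5 (median -2.67) and by day 8 (median -3.42), and limma called 0 of 4 at day 2 (0 at an unadjusted p under 0.05). Of all tested probes, 12.2% were called lower and 18.3% higher at day 2, and 23.8% and 29.4% lower at day 5 and day 8. Birc5 (survivin) had the deepest day 8 value of all 50 genes. It read 28700, 31600 and 40400 in proliferation, 32300, 22500 and 24100 at day 2, 4010, 2730 and 3880 at day 5 and 1420, 1970 and 1290 at day 8. This was a fall of 9.51-fold by day 5 (-3.25 ± 0.23, limma adjusted p = 9.21e-07) and of 21.6-fold by day 8. The kinase subunit Aurkb (Aurora B) was at -2.98 on day 5 and the scaffold subunit Cdca8 (borealin) at -2.36. Incenp, the subunit that activates Aurora B, fell least. Its signals of 3410, 3250 and 3580 in proliferation and 3660, 3490 and 3710 at day 2 overlapped, and those of 677, 645 and 895 at day 5 and 456, 511 and 464 at day 8 lay below, 4.67-fold by day 5 (-2.22 ± 0.14, limma adjusted p = 4.01e-07).

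Kinetochore and centromere genes were below 0 at day 2 in 8 of 8 tested cases (median -0.50), with 2 called lower (12.2% of all probes were). At day 5, 7 of 8 were lower (median -2.68) and at day 8, 8 of 8 (median -3.28), against 23.8% and 29.4% of all tested probes. Cenpe, the kinesin that carries chromosomes to the spindle equator, read 7440, 5470 and 5010 in proliferation, 3430, 4650 and 3570 at day 2, 580, 524 and 653 at day 5 and 472, 665 and 550 at day 8. The fall was 10.1-fold by day 5 (-3.33 ± 0.20, limma adjusted p = 2.66e-07), and the day 8 arrays overlapped those of day 5. Ndc80, the microtubule-binding core of the kinetochore, gave 324, 704 and 652, then 241, 240 and 962, then 59.8, 50.6 and 49.9, and at day 8 25.1, 43.6 and 31.3. The day 2 arrays were spread over both sides of proliferation, and the day 5 fall was 9.94-fold (-3.31 ± 0.50, limma adjusted p = 0.000255).

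Ndc80 works in a complex with Nuf2, Spc24 and Spc25. Spc24 read 3210, 3460 and 3740, then 2990, 3200 and 3900, then 972, 866 and 1050, then 314, 548 and 416, with the smallest fall of the group by day 5 (3.60-fold, -1.85 ± 0.20, limma adjusted p = 2.02e-05) and a further fall after it; Spc25 was at -2.24 on day 5. The single Nuf2 probe lay too near background on every array to be flagged as detected, with signals between 0.928 and 3.13, and was not tested. Cenpa, the histone that marks the centromere, was at -2.88 on day 5, and the inner kinetochore subunits Cenpk and Cenph were at -2.81 and -2.55. Cenpf, a large protein of the outer kinetochore, was dim and scattered: 49.2, 45.8 and 53.0 in proliferation, 7.13, 5.67 and 17.4 at day 5, but 1.56, 5.53 and 61.3 at day 8. Its day 5 value of -2.47 ± 1.00 was not called (limma adjusted p = 0.0673) but was without day 8 array 3 (0.00302) or array 1 (0.0215). Its day 8 call (-2.61, adjusted p = 0.049) was lost without any array of proliferation or day 2, without day 5 array 1 or 2 and without day 8 array 1 or 2 (0.0581 to 0.186).

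Of the kinesins and other spindle proteins 4 of 11 were called lower at day 2 (12.2% of all probes) and 1 higher (18.3%), the latter, Kif22, in a call lost under 17 of 21 alternatives. They were lower in 10 of 11 cases at day 5 (median -2.76) and in 11 of 11 at day 8 (median -3.13), against 23.8% and 29.4% of all tested probes. Kif20b, a kinesin needed for the last step of cytokinesis, read 2310, 1800 and 1180 in proliferation, 692, 772 and 889 at day 2, 180, 150 and 165 at day 5 and 143, 172 and 139 at day 8. Its arrays separated proliferation from day 2 and day 2 from day 5, and the fall reached 10.3-fold by day 5 (-3.37 ± 0.22, limma adjusted p = 5.85e-07). Kif4, the chromokinesin that sets the length of the central spindle, had the smallest standard error of the 50 genes: 389, 367 and 388, then 268, 233 and 271, then 43.1, 44.3 and 44.0, and 22.6, 25.6 and 24.9 at day 8. It was called lower at every step, at -3.12 ± 0.11 on day 5 (limma adjusted p = 7.83e-09) and -3.97 ± 0.11 on day 8. The last step was lost with normexp (-0.23, adjusted p = 0.397).

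Kif11 (Eg5), the motor that pushes the spindle poles apart, stood at -3.04 on day 5, and Kif18a, which damps chromosome movements, at -2.87. The central spindle proteins Kif23 and Prc1 were at -2.79 and -2.76, the microtubule depolymeriser Kif2c at -2.75, and the spindle assembly factors Nusap1 and Tpx2 at -2.62 and -2.61. Kif22, a chromokinesin that pushes chromosome arms, was at -2.13. Kif20a, a partner of Plk1 on the central spindle, was near background: its signals were 9.35, 14.5 and 16.8 in proliferation, 21.0, 13.4 and 8.08 at day 2, 8.94, 11.6 and 10.2 at day 5 and 4.07, 2.99 and 4.46 at day 8. It was above background on 1 of 3 proliferation arrays and 0 of 3 day 8 arrays, and its day 5 value of -0.36 ± 0.33 was not called (limma adjusted p = 0.393) and changed sign with the normexp correction (0.16) and with the slide as a block (0.65).

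The cytokinesis genes fell by day 5 in 3 of 3 cases (median -2.57), where 23.8% of all tested probes were called lower. Ect2, the exchange factor that activates RhoA at the cleavage furrow, read 13600, 11100 and 9940 in proliferation, 5320, 7230 and 9840 at day 2, 1430, 1670 and 1310 at day 5 and 906, 1270 and 1090 at day 8. All day 2 arrays were below those of proliferation, though 1 only just, and the day 5 fall was 7.86-fold (-2.97 ± 0.23, limma adjusted p = 1.77e-06). Racgap1, its partner in the centralspindlin complex with Kif23, gave 66200, 67000 and 72500, then 79400, 76600 and 71100, then 15700, 11100 and 17600, and at day 8 8430, 8060 and 6130. Its first 2 stages overlapped, and the day 5 fall was 4.71-fold (-2.24 ± 0.18, limma adjusted p = 2.94e-06). Anln (anillin), which ties actin to the cleavage ring, was at -2.57 on day 5 and at -2.04 on day 8; its 3 day 8 arrays (44.4, 72.5 and 58.5) overlapped the day 5 arrays (38.4, 46.9 and 34.4) and the difference of 0.53 ± 0.22 was not called (limma adjusted p = 0.132).

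Genes of chromosome structure were lower in 7 of 7 cases at day 5 (median -2.41) and at day 8 (median -2.88). Of all tested probes, 23.8% and 29.4% were called lower at these stages. Mki67, the Ki-67 protein that coats mitotic chromosomes and serves as a marker of dividing cells, read 2830, 2460 and 2050 in proliferation, 1120, 1940 and 1900 at day 2, 327, 395 and 364 at day 5 and 203, 348 and 232 at day 8. The day 2 arrays lay below proliferation without a call (-0.59 ± 0.25, limma adjusted p = 0.1), and by day 5 the fall was 6.71-fold (-2.75 ± 0.25, limma adjusted p = 7.04e-06). Top2a, the topoisomerase that untangles sister chromatids, was at -2.43. The other 5 genes are subunits of condensin I, the ring that compacts mitotic chromosomes: Smc2 at -2.67, Ncapg at -2.41, Ncaph at -2.29, Smc4 at -1.94 and Ncapd2 at -1.82.

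At day 2 the members' values lay on both sides of 0, 32 of 50 below it, where 10434 of 22960 tested probes were below. With both directions pooled, the 14 calls are no larger a share than that of all tested probes. By direction the calls leaned to lower. Of the 50 genes 11 were called lower, against 12.2% of all tested probes, and 3 higher, against 18.3%. 16 genes had all 3 day 2 arrays below proliferation (18.5% of all tested probes) and 5 had all 3 above (27.8%). Kif18a moved most: 2950, 2410 and 2090 became 1020, 1150 and 1190, then 338, 276 and 411 at day 5 and 311, 334 and 314 at day 8, with no overlap over the first 3 stages and a day 2 change of -1.14 ± 0.17 (limma adjusted p = 0.00089). Kif20b (-1.12 ± 0.22, adjusted p = 0.00392), Smc4 (-0.77 ± 0.18, adjusted p = 0.00873) and Ttk (-0.61 ± 0.13, adjusted p = 0.00709) were also lower in limma. These 4 of the 14 day 2 calls held under every alternative run that gave the gene a value, with adjusted p of 0.0334 or less. For Kif18a, Kif20b and Smc4 the second step was not called as different from the first (limma adjusted p = 0.196, 0.0619 and 0.384); the same holds for Ncapg (0.376), Bub3, Bub1, Kif20a, Cdk1, Ndc80, Cenpa and Cenpf.

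**Figure D3:**
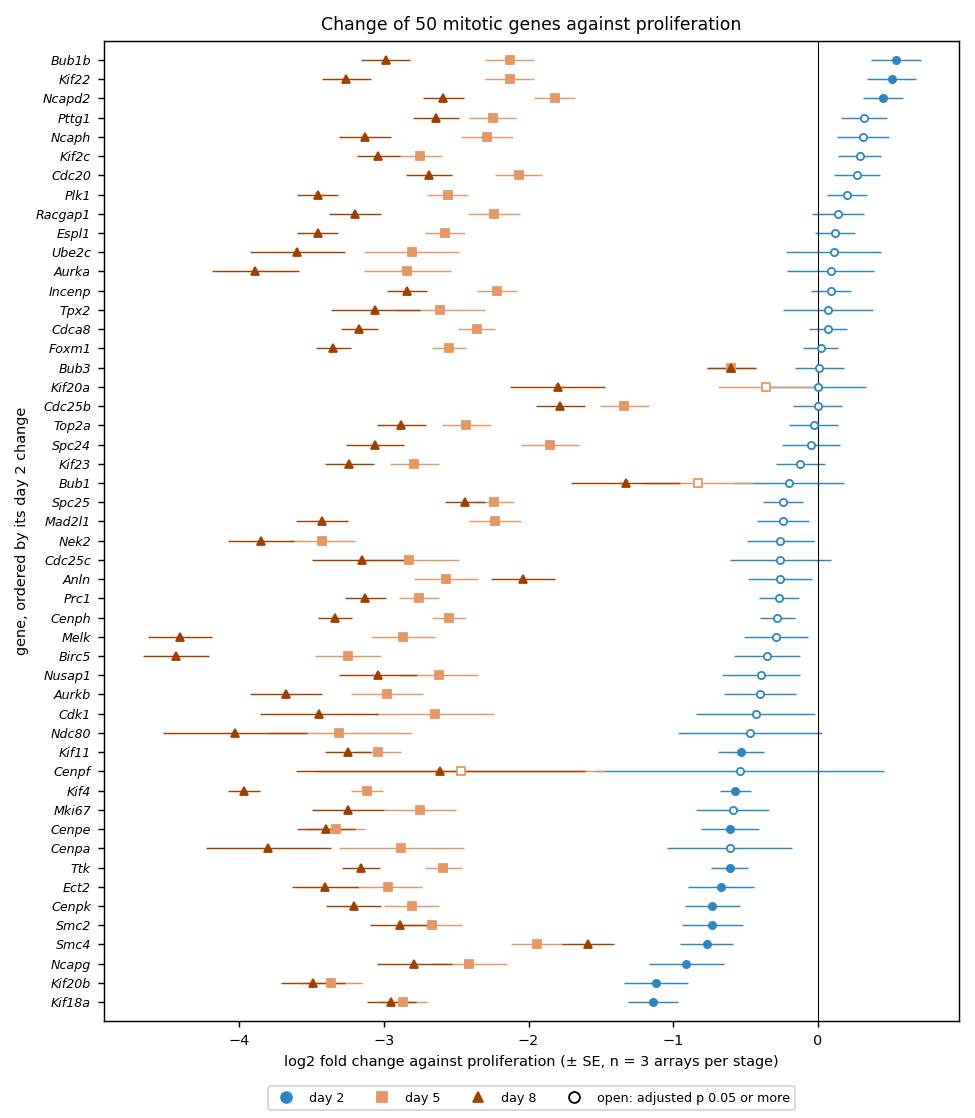
Log2 fold change of each of the 50 tested genes against proliferation (horizontal axis, ± SE, n = 3 arrays per stage) at day 2 (circles), day 5 (squares) and day 8 (triangles), ordered by the day 2 change; open symbols did not pass an adjusted p of 0.05. Day 2 values run from -1.14 (Kif18a) to 0.54 (Bub1b), and the day 5 values of 47 genes are filled and below -0.50.

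The subunits of condensin I had day 2 values on both sides of 0; the difference between subunits was not tested. Smc4 read 5010, 5520 and 6000 in proliferation, 2800, 3980 and 3010 at day 2, 1350, 1230 and 1760 at day 5 and 1850, 1660 and 1980 at day 8. Its partner in the ring, Smc2, read 7270, 6680 and 6830, then 3430, 3940 and 5350, then 1110, 821 and 1400, then 863, 991 and 949, and was at -0.73 ± 0.21 on day 2 (limma adjusted p = 0.0225). Ncapg, a HEAT-repeat subunit with a dim probe, went from 140, 115 and 131 to 73.6, 71.3 and 61.0 at day 2, 22.1, 16.9 and 37.4 at day 5 and 18.7, 22.2 and 15.4 at day 8 (day 2 change -0.91 ± 0.26, limma adjusted p = 0.0216). In all 3 genes the day 2 arrays lay entirely below proliferation. The other HEAT-repeat subunit, Ncapd2, went the other way: 37000, 36400 and 40200 in proliferation, then 45800, 52300 and 57500 at day 2. It then fell to 10400, 10200 and 11600 at day 5 and 5540, 7140 and 6330 at day 8. Its day 2 arrays were all above proliferation (0.45 ± 0.14, limma adjusted p = 0.0305), and the kleisin Ncaph was at 0.31 ± 0.18 without a call (limma adjusted p = 0.207).

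Bub1b and Kif22 were the other genes called higher at day 2. Bub1b read 14200, 14400 and 14500 in proliferation, 17700, 23600 and 22100 at day 2, 2940, 4110 and 2960 at day 5 and 1600, 2070 and 1780 at day 8 (day 2 change 0.54 ± 0.17, limma adjusted p = 0.0342). Kif22 read 15200, 25000 and 22100, then 28300, 29000 and 29700, then 4770, 4170 and 5040, then 2110, 2240 and 2030 (0.51 ± 0.17, limma adjusted p = 0.0454). In both, every day 2 array was above every proliferation array. All 3 rises were lost with the slide as a block (Bub1b 0.30, adjusted p = 0.396; Kif22 0.48, 0.241; Ncapd2 0.27, 0.352), the setting with the highest p for each. Quantile normalization ended them too (0.116, 0.141 and 0.201). The share of all called probes that were higher at day 2, 60%, became 50.1% with the percentile taken only over probes that all arrays detected and 72.8% with normexp; under the former these 3 genes were at 0.45, 0.42 and 0.36, without a call.

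**Figure D4:**
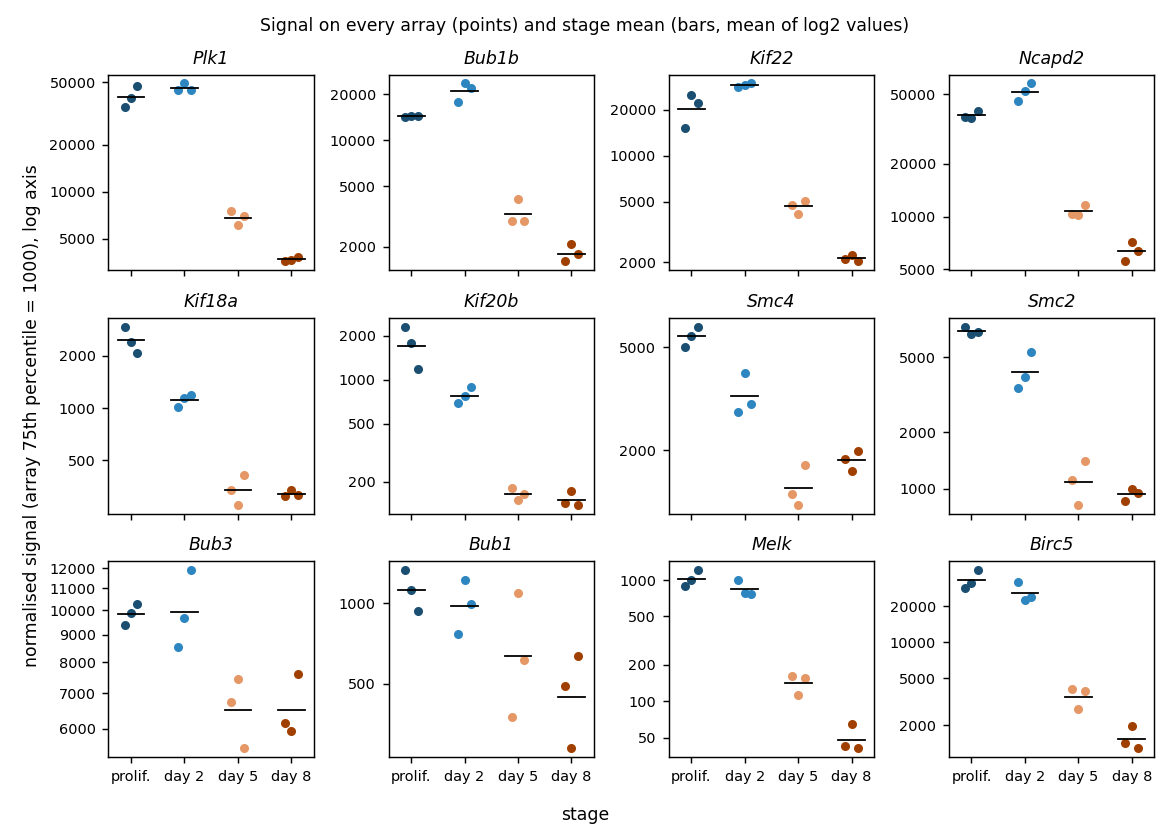
Normalised signal on every array (points; vertical log axis, 75th percentile of each array at 1000) by stage for 12 genes, with the stage mean of log2 values as a bar. Bub1b, Kif22 and Ncapd2 have all day 2 points above proliferation, Kif18a, Kif20b, Smc4 and Smc2 have all of them below, and Bub3 and Bub1 have the smallest changes of the 12 at day 5.

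Single arrays decided several of the smaller day 2 calls. Leaving out proliferation array 1 brought the count of lower genes from 11 to 5 and that of higher genes from 3 to 0; the counts were 7 and 1 without proliferation array 2 and 7 lower without day 2 array 1, and the rises numbered 0 without day 2 array 2 or 3 and 1 without proliferation array 3. Bub1b was not called higher when any of the proliferation arrays, or day 2 array 2 or 3, was dropped (adjusted p from 0.0652 to 0.112). The Ncapd2 rise ended when array 1 (0.0762) or 2 (0.0898) of proliferation, or array 2 (0.0766) or 3 (0.102) of day 2, was dropped. That of Kif22 ended with the loss of any array other than proliferation array 2 (0.0505 to 0.13). The Cenpe fall (-0.61 ± 0.20, limma adjusted p = 0.0364) ended when proliferation array 1 (0.129) or 2 (0.0616), day 2 array 1 (0.108) or 3 (0.101), day 5 array 1 (0.0516) or day 8 array 3 (0.0502) was dropped. The Ect2 fall (-0.67 ± 0.23, adjusted p = 0.0478) held only without proliferation array 3 or day 2 array 3 (0.0505 to 0.158 without the others). The Kif11 fall (-0.53 ± 0.16, adjusted p = 0.0268) ended when proliferation array 1 (0.0938) or 2 (0.0515), or day 2 array 1 (0.0792) or 3 (0.0664), was dropped.

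Other day 2 falls rested on single arrays too. Smc2 was no longer called when proliferation array 1 (0.0658) or array 2 (0.0502), or day 2 array 1 (0.0785) or array 2 (0.0673), was dropped. Ncapg lost it when proliferation array 1 (0.0681) or day 2 array 3 (0.0685) was dropped and with a slide term (0.0631). Cenpk, whose signals were 3930, 2750 and 3410 in proliferation, 1900, 2470 and 1720 at day 2, 486, 398 and 558 at day 5 and 328, 366 and 385 at day 8, had all day 2 arrays below proliferation (-0.73 ± 0.19, limma adjusted p = 0.015). That call ended without proliferation array 1 (0.057), without day 2 array 3 (0.0555) and with a slide term (0.0742; 0.00809 to 0.0742 across settings). The Kif4 fall (-0.57 ± 0.11, limma adjusted p = 0.00397) held whichever array was left out, but not with a slide term (0.0822) or normexp (0.0608). Day 2 array 1 shares its slide with proliferation, and on that slide 33 of 50 genes were below 0 at day 2, with a median of -0.25 against 0.05 for all tested probes. Of all tested probes 47.2% were below 0 there.

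Between day 5 and day 8 the members went on falling by less: 20 of 50 were called lower, against 6.72% of all tested probes, 0 were called higher by limma against 5.88% (1 at an unadjusted p under 0.05), and the median was -0.54 against -0.08. In 27 genes all 3 day 8 arrays lay below day 5, against 19.9% of all tested probes. Among genes above background on the arrays of both stages, the largest called changes were those of Melk (-1.54 ± 0.22, limma adjusted p = 0.00253), Spc24 (-1.21 ± 0.20, adjusted p = 0.00454), Mad2l1, Birc5 (-1.19 ± 0.23, adjusted p = 0.00968) and Kif22 (-1.13 ± 0.17, adjusted p = 0.00361). Mad2l1, whose protein blocks Cdc20 until the checkpoint is met, read 1090, 1400 and 1370 in proliferation, 1130, 1070 and 1050 at day 2, 296, 228 and 296 at day 5 and 133, 134 and 93.6 at day 8. Each of the last 2 stages lay below the one before it (-1.19 ± 0.18 for the last, limma adjusted p = 0.00306). The Kif20a change is known only as a bound, at least 1.73-fold, since its day 8 arrays were not above background (limma adjusted p = 0.0205). It was 0.05 with normexp, and the call was lost without day 5 array 1 (0.0515) or array 2 (0.0643) or day 8 array 1 (0.0519) or array 2 (0.0682).

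The calls of Melk, Foxm1, Mad2l1, Spc24, Cenph, Kif22 and Ncapd2 held under every alternative run that gave the gene a value. Day 5 array 3 is the only day 5 array on the slide of the day 8 arrays. Within that slide 47 of 50 genes were lower at day 8, against 49.4% of all tested probes, with a median of -0.66 against 0.01. With the slide as a block in limma 11 genes were called, Birc5 being among those lost (-1.34, adjusted p = 0.0534). Aurka, Ttk, Cdc20, Incenp and Ncaph lost the call without 1 or more single arrays as well. Some genes that had fallen early had day 8 values close to day 5: Kif18a was at -0.08 ± 0.17, Cenpe at -0.07 ± 0.20 and Kif20b at -0.13 ± 0.22. Smc4 (0.35 ± 0.18, limma adjusted p = 0.215) and Anln were above 0 and not called.

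Other genes of mitosis, in lists of 98 genes of which 96 were on the array and 93 tested, fell at day 5 in 74 cases and rose in 4 (median -1.79). Of all tested probes 23.8% were called lower and 23.7% higher in this contrast. Of other kinetochore and centromere genes 30 of 31 were lower (median -2.13), led by Spdl1, which brings dynein to kinetochores (-3.52 ± 0.35), and the microtubule-coupling protein Ska3 (-3.35 ± 0.38). Of other spindle and cytokinesis genes 16 of 21 were lower and 1 higher (median -2.57). Depdc1a (-4.21 ± 0.36) had the largest measured fall there. The spindle protein Hmmr was lower by at least 4.88-fold, a bound, since it was not above background on any day 5 array. Kif3a, a motor of cilia and cargo transport, was the one that rose (1.03 ± 0.18, limma adjusted p = 0.000788). All 13 mitotic cyclins and entry regulators were lower (median -2.38), among them the cyclin Ccnf (-4.19 ± 0.37) and Fbxo5, an inhibitor of the anaphase-promoting complex (-3.20 ± 0.18).

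Cdc20 and Ube2c, an activator and an enzyme of the anaphase-promoting complex, are described above. The list for this complex holds core subunits and also the activator Fzr1 and the enzyme Ube2s. Of its 14 tested genes, 4 were lower at day 5 and 3 higher, with a median of -0.35. These shares are close to the 23.8% and 23.7% of all tested probes called lower and higher. Anapc15 was lowest at -1.36 ± 0.13, and Anapc7 (1.06 ± 0.15, limma adjusted p = 0.00014), Anapc2 (0.64 ± 0.17, adjusted p = 0.0108) and Anapc16 (0.49 ± 0.18, adjusted p = 0.0471) were higher. Cohesin and condensin II genes were lower in 11 of 14 cases at day 5, with a median of -0.78 and the largest falls in Ncapg2 (-3.73 ± 0.45), a condensin II subunit, and Esco2 (-3.34 ± 0.53), which acetylates cohesin in S phase.

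**Figure D5:**
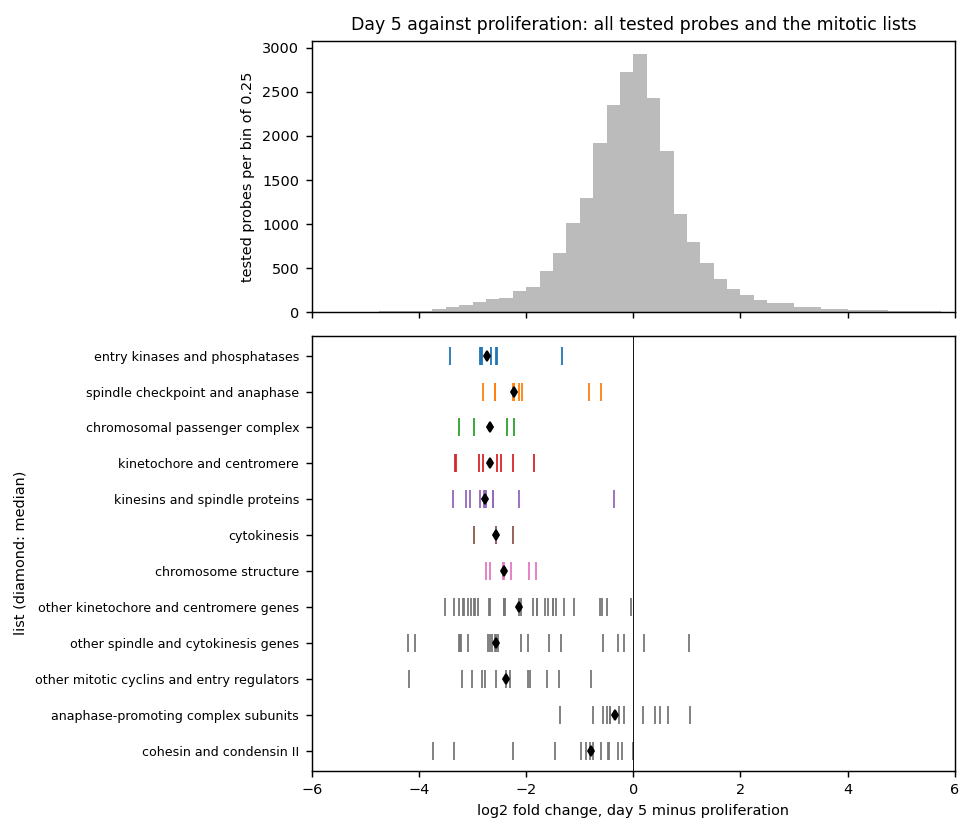
Day 5 against proliferation. Upper panel: number of tested probes per bin of 0.25 in log2 fold change; lower panel: each tested gene of the 7 role groups (coloured ticks) and of the other mitotic lists (grey ticks), with diamonds at the list medians. The role groups have medians between -2.76 and -2.23, and the anaphase-promoting complex list straddles 0.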

How the data were processed

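The authors deposited 1 scanner file for each array. Its processed green signal, used here, is an intensity after the scanner software's background treatment, per the file headers; the submitters' processing notes name Agilent Feature Extraction 10.5.1.1, and the headers record no normalization between arrays. Here controls and population-outlier spots were set aside, log2 was taken of the deposited intensity, spots of a probe were averaged and each array's 75th percentile was subtracted. The 75th percentile lay between 1295 and 1993 in scanner units; the number of arrays limits the precision. 22960 probes were tested, those flagged well above background on each of the 3 arrays at some stage. Stages were compared in a single limma fit (version 3.58.1, R 4.3.3, data.table, version 1.17.8, jsonlite 2.0.0) over the 12 arrays, tested on simulated data, with Benjamini-Hochberg adjusted p under 0.05 over all tested probes as a call and SE from that fit. The tested probe of highest mean signal stood for its gene. 8 members had several probes, and 0 had probes called in opposite directions.

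The members, role groups and other lists were chosen with earlier results of these data known. Signal on every array is given for the largest and smallest day 5 changes of each role group, the 6 largest day 2 and day 8 against day 5 calls by fitted change and all rises; Plk1, Bub1, Cdk1 and Cenpf were added after their values were seen. The other lists are named by their 2 largest fitted changes and all rises. A fold against a stage not above background is a bound: it sets the brighter stage's mean against the dim stage's, after raising each dim array to its lowest signal flagged well above background where the probe lay under it. Alternatives were normexp (offset 50) on the median and background signals (mean signals were not used here), other percentiles, quantile normalization, other probe filters, spots flagged as non-uniform left out (19.8% to 28.3% of spots), slide and replicate blocks, the median over a gene's probes, fewer arrays, and leaving out each array. Promoters were read from RefSeq entries with Python 3.11.15 and pandas 2.3.3; plots used matplotlib 3.10.9.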

Additional observations from a re-analysis of the deposited data

How the results depend on the processing

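For day 5 against proliferation, all members kept their direction under most settings. Between day 2 and day 5, the 47 called members kept theirs in every alternative run that gave the gene a value. The members not called there were not followed across settings. Of the 47 day 5 calls 44 held under every alternative run that gave the gene a value. So did 46 of the 47 calls between day 2 and day 5 and 45 of the 50 day 8 calls. Among the changes followed across settings, only those of Kif20a changed sign. With normexp Kif20a stood at 0.16 for day 5, 0.21 for day 8 and 0.05 for day 8 against day 5. With the slide as a block it stood at 0.65 for day 5, and the cause was not tested. With normexp the member medians were -0.08 at day 2, -2.44 at day 5, -2.96 at day 8 and -0.39 for day 8 against day 5, where the median of all probes moved from 0.07 to 0.20 at day 2 and from -0.11 to 0.15 at day 8, and the share of called probes that were higher from 46.3% to 60.7% at day 8. Across the settings other than leaving out an array, 3 to 12 members were lower at day 2 and 0 to 4 higher. The number of members higher at day 2 was 0 with the percentile taken only over probes that all arrays detected, with quantile normalization, with no filter on dim probes and with the slide as a block, and 1 with only the arrays of the stages compared. Lower at day 2 were 6 members with no filter and 7 with the slide block, which gave 11 lower for day 8 against day 5 and medians of -2.73 at day 5, -3.54 at day 8 and -0.66 for day 8 against day 5. Within the slide holding both stages, a setting chosen after seeing the data, the last median was also -0.66. Leaving out non-uniform spots left between 21 and 28 members with a value: of 22, 3 were lower and 1 higher at day 2 (median -0.02), 23 of 25 were lower at day 5 (-2.43), 23 of 24 at day 8 (-2.97), 21 of 23 for day 5 against day 2 and 9 of 28 for day 8 against day 5, 15 of 22 had unequal steps, 21 of 21 changed over the stages and 33 of the other lists were lower at day 5. Of the genes with a value, Bub3 (day 5, adjusted p = 0.0559; day 8, 0.0569), Ncapd2 (day 2, 0.0864), Ttk and Cdca8 (day 8 against day 5, 0.0683 and 0.0518) lost calls; the cause was not tested. Leaving out 1 array at a time gave 5 to 11 lower and 0 to 2 higher at day 2 and medians of -0.71 to -0.52 for day 8 against day 5. The labels do not say whether the replicate numbers pair the arrays. Deviations of arrays with the same number correlated at -0.155 to 0.243, over 0.1 in 5 of 18 pairs. For arrays with different numbers the range was -0.264 to 0.222, with 6 of 36 pairs over 0.1. Correlations from 3 arrays per stage cannot settle whether the arrays were paired. With the replicate number as a block, 9 members were lower and 2 higher at day 2 and 48 lower at day 5, and every other count and median stayed within 1.5 times its value. Low signal limits Cdk1, Cenpf, Kif20a and Nuf2, whose probes lay near background.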
